A study of Sus scrofa with 8 samples.

Results

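Chemokine ligands were followed in liver tissue of young and old sows, with 5 of the 10 ligands on the list read from the mRNA table. Each deposited identifier was paired with an Ensembl pig gene symbol, and CXCL2, CXCL11, CXCL14, CCL2 and CCL5 had an identifier among the 21607 that are listed (11654 of them have a symbol). The symbols of CXCL9, CXCL10 and CXCL12 were paired only with identifiers outside the table and those of CXCL16 and CX3CL1 with none, so these 5 ligands are not analysed here. The animals were healthy sows of Yana, a local breed of China, and each gave 1 rRNA-depleted RNA-seq library of whole liver tissue. The young group was 2 sows at 180 days and the old group 2 sows at 8 years, with no treatment in the labels, and the study describes the 4 animals as unrelated over the last generations and kept without food the night before slaughter. The study adds that the young sows had never given birth, whereas the old ones had done so for years and were culled. Age and reproductive history therefore cannot be told apart in this design. The question of the comparison is how the expression of these genes differs between young and old sows.

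Chemokines are small secreted proteins that guide leukocytes along a concentration gradient by binding G-protein-coupled receptors on them. They are grouped by the arrangement of their first cysteines into CC, CXC, XC and CX3C ligands. In the liver they are made by hepatocytes, endothelial cells, stellate cells, macrophages and lymphocytes and set which leukocytes enter the sinusoids. CCL2 attracts monocytes through CCR2. CCL5 attracts T cells, NK cells and monocytes through receptors that include CCR1 and CCR3. CXCL11 is an interferon-induced ligand of CXCR3, CXCL2 attracts neutrophils through CXCR2, and CXCL14 is a homeostatic chemokine of epithelia.

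The listed mRNAs and lncRNAs held 28324675 to 52207649 reads per library, with 51494798 and 52207649 in young replicates 1 and 2 and 28324675 and 31630060 in the old ones. Values are counts scaled to a common total per library (CPM) with no gene length in them, so a level is compared here between libraries and not between genes. Old replicate 1 stood apart from the other 3 livers in its interferon-stimulated genes. The summed value of 30 interferon-stimulated genes was 61.5 and 72.0 CPM in the young sows, 2084 in old replicate 1 and 53.2 in old replicate 2. The label of the tissue was matched by its hepatocyte markers, of which all 11 in the table were above 0 in every library, with albumin (ALB) at 16534 CPM or more. A listed 0 also needs care in the young libraries. Of the 9292 mRNAs with at least 100 reads in young replicate 1, 288 (3.10%) were listed at 0 in young replicate 2, and of 8866 with that many in young replicate 2, 195 (2.20%) were at 0 in young replicate 1. Between the old libraries these numbers were 8 of 8216 and 21 of 7760. Such zeros are larger gaps than counting error gives, so a gene at 0 is described below only as listed at 0. A fitted log2 fold change of a gene with a listed 0 depends on the number added before the log and is no measure of size.

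Of the 5 ligands, CXCL14 was lower in both old sows than in either young sow and CXCL2 was above 0 only in the old sows. CCL5, CCL2 and CXCL11 overlapped between the ages. CCL5 differed 2.92-fold between the young sows, CXCL11 9.02-fold and CCL2 2.78-fold between the old sows, and CCL2 and CXCL11 were each listed at 0 in 1 young sow. None of the 5 passed the test across all mRNAs (limma on log2(CPM + 1), an adjusted p-value under 0.05 and an absolute log2 fold change above 1), and the test called 0 of 16898 mRNAs (0%), of which 15.7% were under 0.05 before adjustment. With edgeR, the tool of the study, an exact test called 2.70% of mRNAs higher and 0.456% lower in the old sows at the same thresholds, and the quasi-likelihood test of edgeR called 0.

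CXCL14 (ENSSSCG00000014310) had 6.40 and 2.90 CPM in young replicates 1 and 2, from 588 and 251 reads. It had 0.634 and 0.933 CPM in old replicates 1 and 2, from 39 and 67 reads. Both old sows lay below both young sows, and the young sows differed from each other by 2.21-fold. The mean was 4.65 ± 2.48 CPM in the young sows and 0.784 ± 0.211 in the old sows (SD, n = 2), which is 5.94-fold lower in the old sows. On log2(CPM + 1) the fold change was -1.60 with a standard error of 0.39, with 0.255 as the adjusted p-value in limma. The 95% Poisson interval was 2.55 to 3.28 CPM for young replicate 2 and 0.723 to 1.18 CPM for old replicate 2, so the nearest livers of the 2 ages differed by more than counting error. An interval of this kind leaves out the spread between animals, and it takes reads as independent molecules, which PCR copies are not. The intervals of the young sows, 5.89 to 6.94 and 2.55 to 3.28 CPM, did not overlap either. With any library left out the log2 fold change stayed between -2.06 and -1.13. The exact test of edgeR gave -2.35 on the recovered reads with an adjusted p-value of 0.0564.

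In neither young sow was CXCL2 (ENSSSCG00000008959) above 0. Old replicate 1 had 0.357 CPM from 22 reads and old replicate 2 had 0.404 CPM from 29 reads, so both old sows were above the young ones by fewer than 30 reads. On log2(CPM + 1) the difference was 0.46 with a standard error of 0.11 (limma, adjusted p = 0.253). It was 0.82 with 0.5 and 2.26 with 0.1 added before the log, so its size is set by that number. The exact test of edgeR called it with an adjusted p-value of 0.0305, against the 2.70% of mRNAs it called higher, while the quasi-likelihood test of edgeR gave 0.276. CXCL2 entered these tests only through the old sows, so the call is no support for a difference. Among 623 mRNAs with 20 to 40 reads in both old libraries, 35 (5.62%) were listed at 0 in both young libraries, whereas 0 of 310 mRNAs with 20 to 40 reads in both young libraries were at 0 in both old ones. Over all genes, 15230 and 14291 mRNAs were above 0 in the young libraries and 17262 and 16978 in the shallower old ones, and the part of this in the result for CXCL2 was not tested. CXCL2 belongs to a cluster of close relatives, next to CXCL8, AMCF-II and PPBP in the RefSeq annotation of Sscrofa11.1, and reads of near-identical copies can be split between them. CXCL8 had 2 reads and 1 read in the old sows and AMCF-II none in any library.

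CCL5 (ENSSSCG00000017705) was at 6.16 and 18.0 CPM in the young sows (566 and 1557 reads). It was at 8.29 and 14.3 CPM in the old sows (510 and 1030 reads). Both old sows lay between the young ones. The means were 12.1 ± 8.36 CPM in the young sows and 11.3 ± 4.28 in the old sows (SD, n = 2), and young replicate 2 held 2.92 times the value of young replicate 1. The log2 fold change of 0.03 had a standard error of 0.63 (limma, adjusted p = 0.987). CCL5 supplied 43.0% to 72.9% of the reads of the 5 ligands in each library. No gene length enters this share, so it does not rank the ligands by level.

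CCL2 (ENSSSCG00000017723) was listed at 0 in young replicate 1 and had 3.79 CPM in young replicate 2 (328 reads). The old sows had 2.08 and 5.79 CPM (128 and 416 reads). Old replicate 2 was the highest of the 4 and old replicate 1 lay below young replicate 2. The log2 fold change was 1.06 with a standard error of 0.996 (limma, adjusted p = 0.679). It was 2.52 with 0.1 added before the log. It turned to -0.07 without young replicate 1, the liver listed at 0, and the same value came from a fit that took a listed 0 as missing and so dropped that library for CCL2.

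CXCL11 (ENSSSCG00000008978) had 1.76 CPM in young replicate 1 (162 reads) and was listed at 0 in young replicate 2. In the old sows it had 1.89 and 0.209 CPM (116 and 15 reads), a 9.02-fold gap between livers of the same age. The highest young and the highest old sow were thus within counting error, with 95% Poisson intervals of 1.503 to 2.057 and 1.558 to 2.261 CPM. The log2 fold change was 0.17 with a standard error of 0.76 (limma, adjusted p = 0.946). With 0.1 added before the log it was 0.86. The direction turned to -0.57 without young replicate 2 or with the listed 0 taken as missing, and to -0.46 without old replicate 1. RefSeq lists ART3 across CXCL11, and ART3 itself was at 0 and 0.046 CPM in the young sows and at 0.341 and 0.097 in the old sows. The study names a directional library kit, but how strand was used in the counting is not given in the sources used here. Reads of the overlap therefore cannot be assigned to either gene with certainty.

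**Figure D1:**
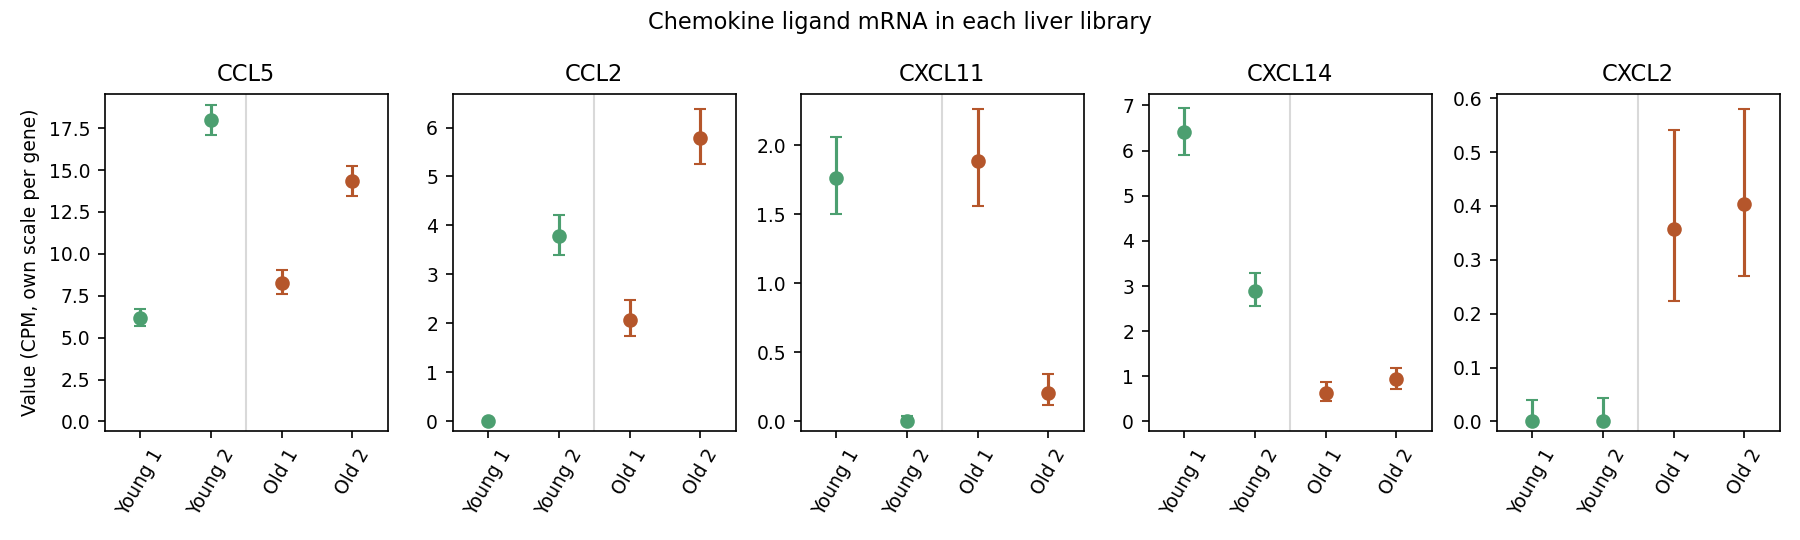
Value of each chemokine ligand in CPM (vertical axis, starting at 0, with its own scale per gene) in the 4 libraries (horizontal axis, young in green and old in brown), with bars for the 95% Poisson interval of the read count. CXCL14 is at 6.40 and 2.90 CPM in the young sows and below 1 in both old sows, CXCL2 is above 0 only in the old sows, and the other 3 ligands overlap between ages.

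For a single gene the exact two-sided permutation test over the 4 libraries could not go below p = 0.333, the value that CXCL2 and CXCL14 reached, and it gave 0.667 for CCL2 and CXCL11 and 1 for CCL5. Both old sows were above both young sows for 1 of the 5 ligands and below them for 1, against 24.4% and 25.0% of all mRNAs tested. An unadjusted p-value under 0.05 in limma was reached by CXCL2 and CXCL14, 2 of 5, against the 15.7% of all mRNAs. Of these, CXCL2 entered the test only through the old sows, where it is above 0. Its young values are both listed at 0 and have no spread, so its p-value and its place in these counts are no support. The median log2 fold change over the 5 ligands was 0.17, with 4 above and 1 below 0 on log2(CPM + 1), beside a median of -0.02 over all mRNAs tested. By mean CPM, CCL5 was lower in the old sows, and CCL2, CXCL11 and CXCL2 of the 4 had a listed 0. With a listed 0 taken as missing the median was -0.32 over 4 ligands. It was -0.07 without young replicate 1, 0.46 without young replicate 2, 0.40 without old replicate 1 and 0.44 without old replicate 2. In bulk tissue, fewer cells of a type and less RNA per cell cannot be told apart.

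**Figure D2:**
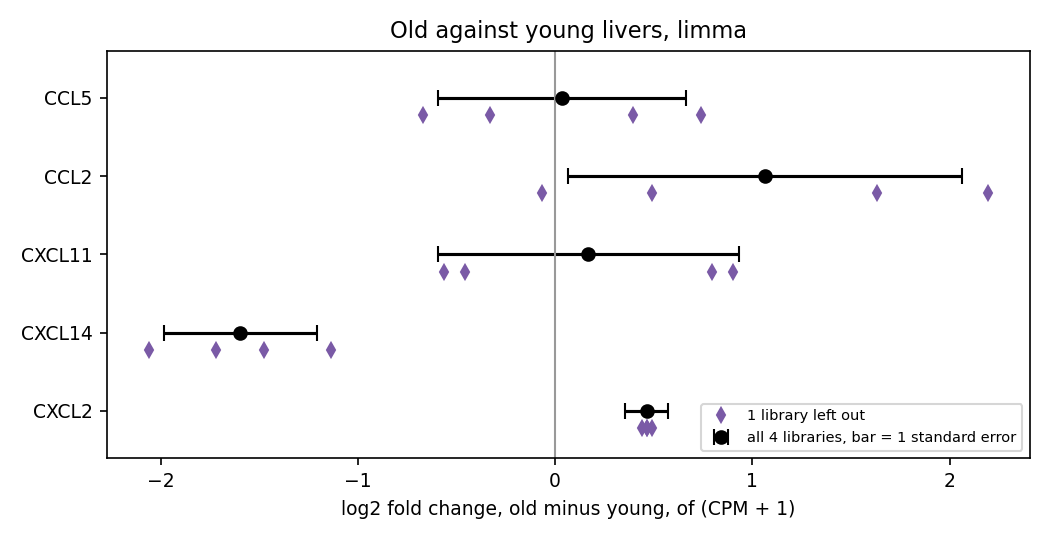
Log2 fold change of old against young sows on log2(CPM + 1) for each ligand (black point, bar of 1 standard error from limma) and the same with each of the 4 libraries left out (purple diamonds). CXCL14 stays between -2.06 and -1.13, while CCL5, CCL2 and CXCL11 have diamonds on both sides of 0. For CXCL2 leaving out a young library cannot move the value, since both young libraries are listed at 0.

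Several ligands with many reads in 1 young sow were listed at 0 in the other. The table holds 15 chemokine ligands, the 5 above and 10 from a list of 35 other ligands. Of the 7 ligands with at least 100 reads in young replicate 1, CXCL11, XCL1, CCL27 and CCL28 were listed at 0 in young replicate 2, against the 3.10% of all mRNAs given above. Of the 4 ligands with at least 100 reads in young replicate 2, CCL2 was listed at 0 in young replicate 1. In the old sows, 5 ligands had that many reads in replicate 1 and 5 in replicate 2, and 0 of them were at 0 in the other replicate. XCL1, the lymphotactin made by activated T and NK cells, had 499 reads in young replicate 1 and was listed at 0 in young replicate 2, with 378 and 112 in the old sows. CCL27, an attractant of skin-homing T cells, had 438 reads in young replicate 1, was listed at 0 in young replicate 2, and had 57 and 177 in the old sows.

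**Figure D3:**
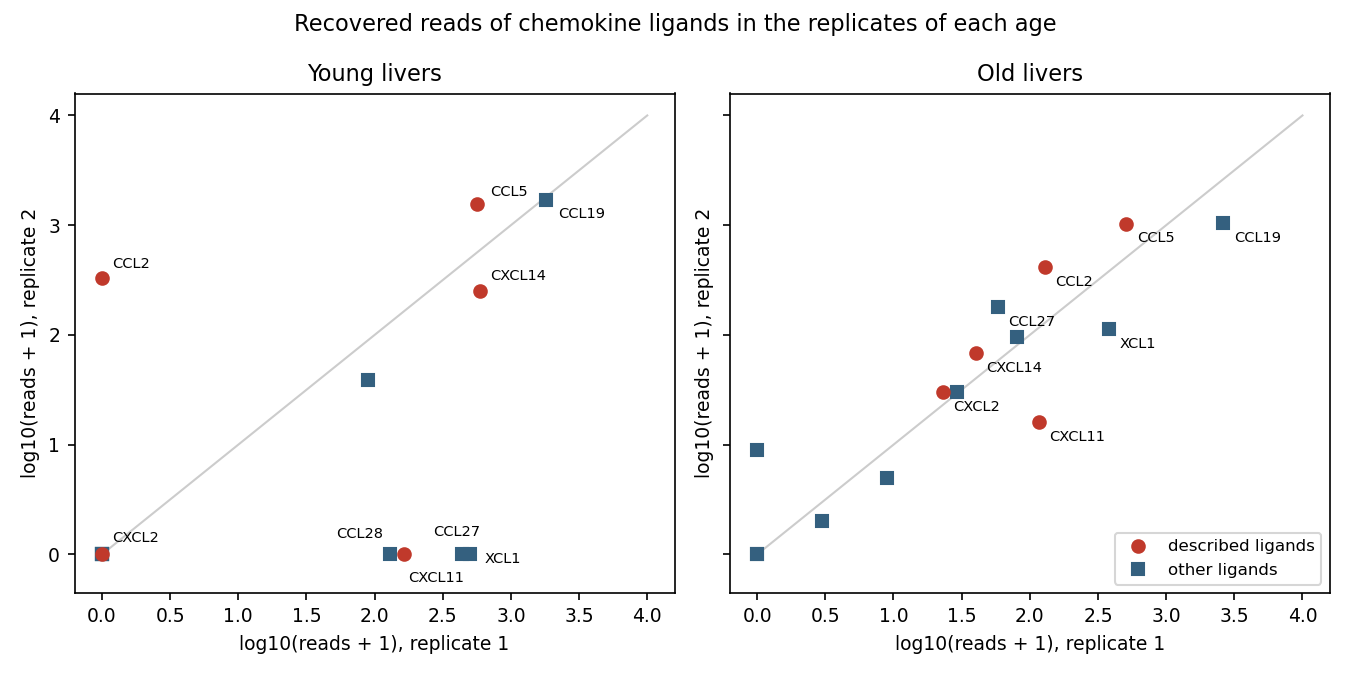
Recovered reads of the 15 chemokine ligands in replicate 1 (horizontal axis) against replicate 2 (vertical axis), both as log10(reads + 1), for the young sows on the left and the old sows on the right, with the 5 described ligands as red circles and the others as blue squares. CCL2 lies on the vertical axis and CXCL11, XCL1, CCL27 and CCL28 lie at 0 of replicate 2 in the young sows, whereas every ligand with 100 reads or more in an old sow is above 0 in the other old sow.

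None of the 7 other ligands tested passed the threshold (limma), and 0 of them had a call by the exact test of edgeR. In limma 0 of the 7 had an unadjusted p-value under 0.05, against 15.7% of all mRNAs. CCL19, the ligand of CCR7 that draws T cells and dendritic cells, was at 19.7 CPM in each young sow. It was at 42.6 CPM in old replicate 1 and 14.6 in old replicate 2, so the old sows lay on either side of the young ones, and the log2 fold change of 0.33 had a standard error of 0.59 (limma, adjusted p = 0.835). CCL3L1, a ligand of CCR1 with close copies in the genome, was at 0.958 and 0.439 CPM in the young sows and at 1.28 and 1.31 in the old sows. Its groups did not overlap, with a log2 fold change of 0.45 and a standard error of 0.20 (limma, adjusted p = 0.418). XCL1 was at 5.43 and 0 CPM in the young sows and 6.14 and 1.56 in the old sows, and CCL27 at 4.77 and 0 against 0.926 and 2.46. CCL28, a mucosal chemokine, was at 1.41 and 0 CPM against 0.455 and 0.404. The remaining 5 (CXCL8, AMCF-II, CCL1, CCL17 and CCL25) stayed under 10 reads in every library, and AMCF-II and CCL1 were listed at 0 in all of them.

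All 12 chemokine receptors with an identifier, of 18 on the list, were tested, and none passed limma or the exact test of edgeR. Both old sows were above both young sows for 4 of the 12 and below for 0, against 24.4% and 25.0% of all mRNAs. CXCR6, the receptor of CXCL16 on liver-homing NK and T cells, was at 0.392 and 0.451 CPM in the young sows and at 1.15 and 0.988 in the old sows. It was the only receptor of the 12 with an unadjusted p-value under 0.05 in limma, against 15.7% of all mRNAs. The log2 fold change of CXCR6 was 0.54 with a standard error of 0.12 (limma, adjusted p = 0.246). CCR6, which binds CCL20, was at 0.022 and 0 CPM in the young sows and 0.097 and 0.251 in the old sows, from at most 18 reads. CXCR5 and CCR10, the other receptors without overlap, stayed under 10 reads in every library. CCR2 and CXCR2, the receptors of CCL2 and CXCL2, are not analysed here.

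CCR1 and CCR3 are receptors of CCL5, and CCR1 was highest in old replicate 1. CCR1 was at 1.07 and 1.23 CPM in the young sows, 4.99 in old replicate 1 and 0.877 in old replicate 2. Old replicate 1 was above both young sows and old replicate 2 below both, and the log2 fold change of 0.64 had a standard error of 0.67 (limma, adjusted p = 0.709). CCR3, the eotaxin receptor, was at 0.022 and 0.220 CPM in the young sows and 0.292 and 0.111 in the old sows. CCL5 itself was not highest in old replicate 1, where it had 8.29 CPM.

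CXCR3, the receptor of CXCL11, was low in all 4 livers, at 0.120 and 0.312 CPM in the young and 0.097 and 0.139 in the old sows. CCR7, the receptor of CCL19, was at 0.044 and 0.092 CPM in the young sows, 0.422 in old replicate 1 and 0.070 in old replicate 2, so that both CCL19 and CCR7 were highest in old replicate 1. XCR1, which binds XCL1 on cross-presenting dendritic cells, was at 0.250 and 0.208 CPM against 0.536 and 0.237. CCR9, the receptor of CCL25, was at 0 and 0.416 CPM against 0.081 and 0.042.

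CX3CR1, the receptor of CX3CL1 on monocytes and tissue macrophages, was lowest in old replicate 1. It was at 6.57 and 7.98 CPM in the young sows and 7.92 in old replicate 2, and at 0.471 in old replicate 1 (29 reads against 569 to 691 in the other livers). The log2 fold change between ages was -1.19 with a standard error of 1.03 (limma, adjusted p = 0.655). CLEC4F, a lectin of rodent Kupffer cells, was highest in that library, at 21.0 and 32.2 CPM in the young sows, 102 in old replicate 1 and 0.933 in old replicate 2.

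Atypical receptors bind chemokines without classical G-protein signalling and remove them or hold them. ACKR4, which takes up CCL19, CCL21 and CCL25, was at 0.512 and 0.994 CPM in the young sows, 9.36 in old replicate 1 and 1.11 in old replicate 2. Both old sows were above both young ones, mainly by old replicate 1, and the log2 fold change was 1.43 with a standard error of 0.92 (limma, adjusted p = 0.549). ACKR3, which binds CXCL12 and CXCL11, was at 2.84 and 1.19 CPM against 4.49 and 2.44. CCRL2 was at 1.55 and 0.774 CPM against 3.07 and 0.585. All 3 were above both young sows in old replicate 1, where 35.5% of all mRNAs tested were, and so were 9 of the 12 other receptors, 5 of the 10 other ligands and 2 of the 5 described ligands (CXCL2 and CXCL11).

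**Figure D4:**
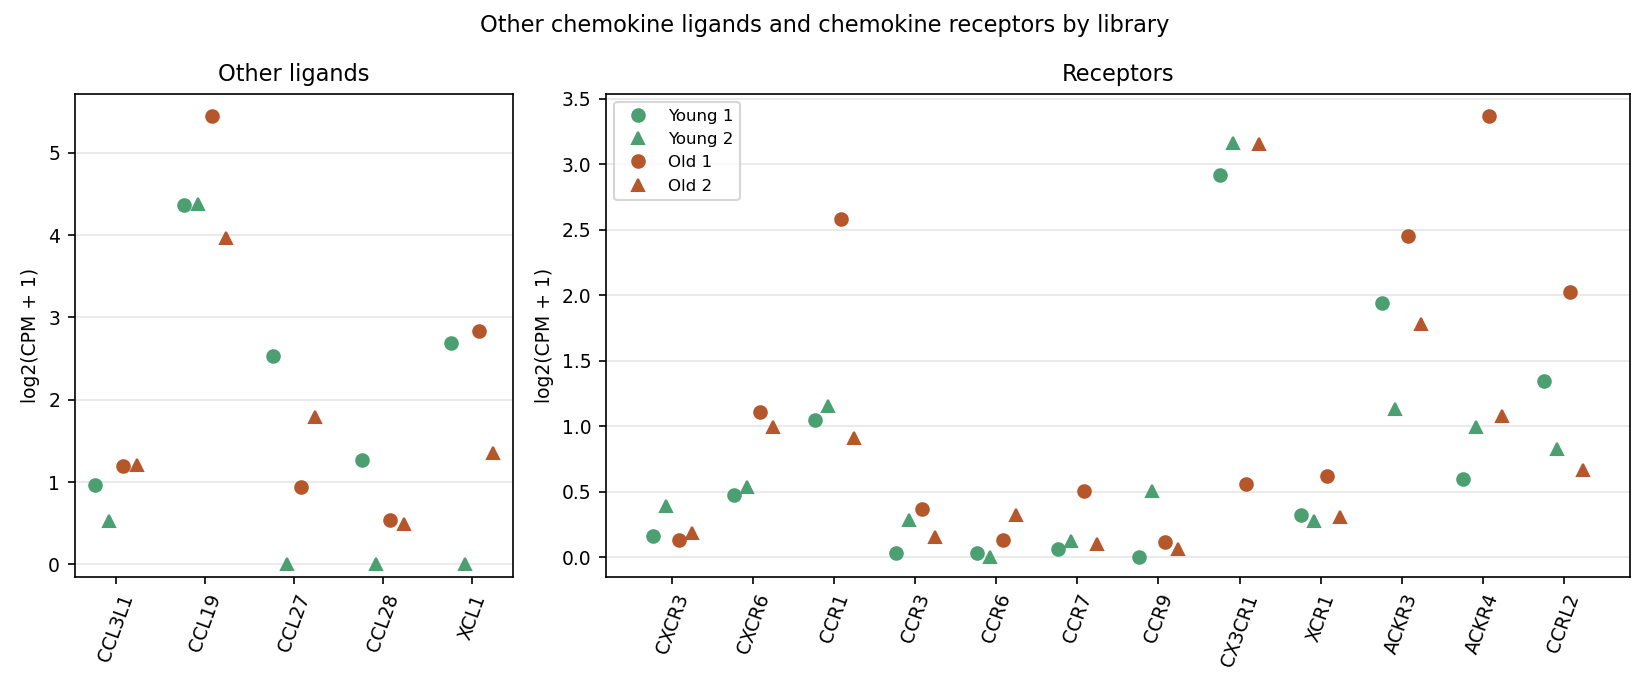
Level on log2(CPM + 1) (vertical axis) of other ligands and of receptors with at least 10 reads in a library (horizontal axis), with young sows in green, old sows in brown, replicate 1 as circles and replicate 2 as triangles. CCL19, CCR1, CCR7 and ACKR4 are highest in old replicate 1 and CX3CR1 is lowest there, while CXCR6 has both old sows above both young ones.

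Genes that trim, shed or relay chemokine signals included DPP4 and GRK2, whose groups did not overlap. DPP4, a membrane peptidase that clips the N-terminus of CXCL11, CCL5 and other chemokines, was at 30.5 and 34.2 CPM in the young sows and at 7.69 and 11.2 in the old sows. Both old sows were below both young ones. The log2 fold change was -1.69 with a standard error of 0.23 and an adjusted p-value of 0.213 in limma. No mRNA had a smaller adjusted p-value. The adjustment gave other mRNAs the same value, so it does not rank DPP4 first. GRK2, the kinase that desensitises chemokine receptors, was at 3.90 and 3.70 CPM in the young sows and 6.35 and 6.78 in the old sows, and it was chosen after its values were seen. Its log2 fold change was 0.66 with a standard error of 0.11 (limma, adjusted p = 0.223). The G-protein subunits GNAI2 and GNAI3 had 18.2 and 19.3 against 21.1 and 22.6 CPM and 13.2 and 11.02 against 9.54 and 7.87 CPM. Of the 13 genes of this list in the table, 5 had both old sows higher, 4 had both lower, 3 (DPP4, GRK2 and ADAM17) had an unadjusted p-value under 0.05 and none passed the test or the exact test of edgeR. The shares over all mRNAs were 24.4%, 25.0% and 15.7%, and the list had a median of -0.03 on the log2 scale.

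CXCL11 is an interferon-induced gene, and its values are set beside those of the interferon pathway. All 30 interferon-stimulated genes in the table, of 41 listed, were above both young sows in old replicate 1. In old replicate 2, 6 were above and 15 below both. Over the 16898 mRNAs tested, 6005 were above both young sows in old replicate 1. Old replicate 2 had 5857 above and 6006 below both. RSAD2 was at 0.664 and 1.54 CPM in the young sows, 618 in old replicate 1 and 2.28 in old replicate 2, MX1 at 2.27, 7.28, 269 and 4.30 and IFIT1 at 2.85, 4.34, 231 and 4.66. CXCL11 was higher in old replicate 1 than in old replicate 2 and had nearly the same value in young replicate 1. Those 3 genes were at their lowest in young replicate 1. A link between CXCL11 and these genes was not tested. Of 11 genes that carry interferon signals, STAT2 was at 33.0, 29.4, 85.5 and 18.4 CPM and IRF3 at 16.6, 18.1, 22.3 and 25.6. IFNB1 was listed at 0 in all 4 livers. None of the 29 interferon-stimulated genes and 10 signalling genes tested passed the threshold in limma. An unadjusted p-value under 0.05 was reached in limma by 1 of each list, against 15.7% of all mRNAs. The exact test of edgeR called RSAD2, CIITA and IRF7, where it called 2.70% of all mRNAs higher and 0.456% lower. The median log2 fold changes of 1.56 and 0.29 became -0.11 and -0.31 without old replicate 1.

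CCL2, CXCL2 and CXCL8 are also targets of NF-kB, the inflammatory transcription factor. NFKBIA, its inhibitor and early target, was at 8.06 and 8.64 CPM in the young sows and 13.0 and 15.8 in the old sows (log2 fold change 0.71, standard error 0.15, limma adjusted p = 0.242). IL1R1, the receptor of interleukin 1, was at 56.7 and 49.6 CPM against 24.8 and 14.05, and TNFRSF1A at 10.4 and 10.02 against 16.5 and 10.5. IL6 was listed at 0 in all 4 livers. Of 17 genes of this list in the table, 16 were tested, 2 had an unadjusted p-value under 0.05 and none passed limma or the exact test of edgeR, with 5 higher and 3 lower in both old sows and a median log2 fold change of -0.02. Over all mRNAs these shares were 15.7% under that p-value, 24.4% higher and 25.0% lower.

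Markers of cells that make or follow chemokines moved with some of these values, and their part in them was not tested. The summed value of 6 neutrophil markers was 0.250 and 0.578 CPM in the young sows and 8.53 and 2.42 in the old sows. Both old sums were above both young ones, as for CXCL2, but the sum was highest in old replicate 1 and CXCL2 in old replicate 2. Among them S100A8 was at 3.54 and 0.919 CPM in the old sows and listed at 0 in the young ones. The exact test of edgeR called S100A8, but it entered that test only through the old sows, so the call is no support. CSF3R was at 0.098 and 0.393 against 2.36 and 0.849, and LTF at 0.152 and 0.185 against 2.502 and 0.348. MPO and ELANE were listed at 0 in the young sows. Of the 6 markers, 4 were listed at 0 in each young library, 1 in old replicate 1 and 0 in old replicate 2. These zeros need the same care as those of the ligands in the young libraries. The 12 markers of stellate cells and fibroblasts summed to 32.0 and 50.5 CPM in the young sows and 30.3 and 73.0 in the old sows. The second replicate of each age was higher, as for CCL5, and for CCL2, which was listed at 0 in young replicate 1. Replicate numbers name separate animals, and how many of all mRNAs have this order was not counted. COL3A1 alone was at 8.75, 21.4, 5.53 and 23.1 CPM, ACTA2 at 3.18, 4.32, 3.22 and 11.7, and COLEC11 at 5.36, 4.75, 8.95 and 10.1.

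For 12 identifiers of T and NK cell markers the sum was 16.2 and 18.4 CPM in the young sows and 26.4 and 18.6 in the old sows, an order that CCL5 did not have. CD2 was at 2.68, 2.77, 8.82 and 2.99 CPM, LCK at 1.97, 2.65, 1.95 and 2.65, and the GZMA identifier with the higher level at 3.31, 3.33, 2.08 and 1.34. The 10 macrophage markers summed to 274 and 317 CPM in the young sows and 502.0 and 392.2 in the old sows. C1QA gave most of that sum, at 181, 204, 255 and 241 CPM, and CD14 was at 27.9, 27.8, 49.7 and 91.1. Of the 10 markers, 7 had a log2 fold change above 0 and 3 below it. The sums of the other lists were 42.8 to 48.3 CPM in young and 57.9 to 75.6 in old sows for 8 endothelial markers, 102 to 115 and 61.6 to 67.1 for 7 of B and plasma cells, 41.6 to 42.6 and 42.9 to 76.5 for 6 of cholangiocytes, 430 to 622 and 308 to 407 for 6 of erythroid cells, and 50372 to 56748 and 35118 to 41359 for the 11 of hepatocytes. XBP1, which hepatocytes also express, gave most of the B and plasma cell sum, at 111.5 and 93.1 CPM in young against 53.6 and 57.5 in old sows, and HBB most of the erythroid sum. MZB1, a plasma cell marker, did not follow that sum, at 1.10 and 2.58 CPM in young against 11.4 and 2.03 in old sows, and CD22 was at 0.762 and 4.22 against 1.04 and 1.73. The vessel markers went apart in old replicate 1, where LYVE1 was at 36.5 CPM against 7.49 to 8.90 in the other 3 sows, and KDR at 2.26 against 9.87 to 10.6. None of the genes in these 9 lists passed limma. At most 3 of a list had an unadjusted p-value under 0.05 in limma (3 of 10 for macrophages), against 15.7% of all mRNAs. The exact test of edgeR called only S100A8, which entered the test only through the old sows. That test called 2.70% of all mRNAs higher and 0.456% lower.

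The genes whose pattern over the 4 livers was most like that of CCL5, picked as the member of the 5 with the highest mean CPM, were SEPTIN1, SEBOX, RCE1, NET1 and CAPZB. Their Euclidean distance from it, on log2(CPM + 1) centred per gene, ran from 0.157 to 0.237 among 6101 named genes with a mean of at least 1 CPM. NET1, for example, was at 6.69 and 18.0 CPM in the young sows and 10.17 and 17.4 in the old sows. For CCL2, which had the widest range of the 5 on log2(CPM + 1), they were B4GALT2, RAB15, CNN1, FGFR2 and SORCS1, at distances from 0.603 to 0.794. With 4 libraries such a likeness is a description of these livers alone.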

How the data were processed

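RNA-seq of 4 livers was analysed, grouped by the age in the labels. The authors used TopHat2 2.0.14 on Sscrofa10.2, StringTie 1.2.3 for assembly, and name the deposited values TPM from Salmon 0.6.0 (versions from the submitters' processing notes). The deposited values were whole multiples of 1 step per library (100% of values above 0, within 0.001), so they are CPM of a total that is not stated. Dividing by the step gave whole reads, which set the depth and the Poisson intervals. Columns of miRNAs and circRNAs were not used here.

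Old and young livers were compared with limma 3.58.1 on log2(CPM + 1) and p-values were adjusted by Benjamini-Hochberg over 16898 mRNAs, those with a value above 0 in 2 or more libraries. Whole reads were tested with edgeR 4.0.16, by its exact test and by its quasi-likelihood fit. Scripts ran in Python 3.11.15 and R 4.3.3 and were tested on simulated counts. The RefSeq annotation of Sscrofa11.1 gave only which genes are neighbours or overlap, since its build differs.

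The members and lists were chosen with earlier results of these data known. Named genes were all members, other ligands and receptors with at least 10 reads in a library, the 3 highest means of every other list, and the 5 genes most like CCL5 and CCL2 in pattern. Others named are counts of few genes or are said to be chosen after their values were seen. The replicate numbers name separate animals, and the labels give no shared litter, batch or day. Alternatives covered the pseudocount, the filter, TMM scaling, a variance trend, the test, a replicate block and leaving out each library. Taking a listed 0 as missing was added after seeing the data. A few genes that meet the rule are not reported here, and counts and sums over lists include them.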

Additional observations from a re-analysis of the deposited data

How the results depend on the processing

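No mRNA was called in limma under 11 of its 12 other settings. With a mean of at least 1 CPM required, 2 were called, and the exact test of edgeR called 534 (457 higher and 77 lower in old livers), whereas its quasi-likelihood test called 0, although 1954 were higher and 520 lower with an unadjusted p under 0.05 (1145 and 1509 in limma). The median log2 fold change of the 5 ligands was 0.86 with a pseudocount of 0.1, -0.32 over 4 ligands with a listed 0 taken as missing, and -0.066 to 0.46 with 1 library left out. CXCL14 kept its direction and stayed above the threshold under all 14 alternatives (adjusted p from 0.0564 to 0.492). CXCL2 passed only in the exact test of edgeR, where its fitted log2 fold change of 8.02 depends on the prior count because the young livers are at 0. CCL2 ranged from -0.066 to 2.19, CCL5 from -0.67 to 0.74 and CXCL11 from -0.57 to 0.90 with 1 library left out, and with a listed 0 taken as missing CCL2 was at -0.066 and CXCL11 at -0.57. CCL5 was lower in old livers without young replicate 1 (-0.67) and without old replicate 2 (-0.33), CCL2 without young replicate 1 (-0.066), and CXCL11 without young replicate 2 or old replicate 1. With the replicate block, 0 mRNAs were called and the median of the ligands was 0.17, and it changed no call. In the labels, same-numbered libraries shared only a number. The correlation of their deviations was 0.0902, which with 2 animals per age cannot exclude a shared day or batch. TMM scaling multiplied the deposited values by 0.912 and 0.954 in young replicates 1 and 2 and by 1.073 and 1.072 in the old ones. It thus raised old against young values, and CCL5 went from 0.03 to 0.21. The median of all mRNAs on log2(CPM + 1) moved by 0.0590. The low read numbers of CXCL2, of CXCL14 in old livers and of several receptors limit their precision. CXCL2 has no value with a listed 0 taken as missing, a setting chosen after seeing the data, and neither CXCL2 nor CXCL11 reached a mean of 1 CPM.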
